A study of Mus musculus with 20 samples.

Results

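Grafts of seminal vesicle epithelium labelled with both vectors, mNKX3.1 + UTY_sh, were compared with grafts of prostate epithelium, labelled PE, to describe which parts of the prostate programme were absent from the former. The comparison used 8 of the 20 libraries, 4 labelled mNKX3.1+UTY_sh and 4 labelled PE, chosen by their labels alone. It covered the 13456 of 23284 genes that had a log2 value of at least 5 in at least 4 of the 20 libraries. Both kinds of graft are tissue recombinants, in which mouse epithelial cells are combined with rat urogenital sinus mesenchyme (Sprague Dawley) and implanted in a host mouse. The epithelial donors were 2 months old, and the grafts were taken 3 months after implantation. The labels give the mouse background as a hybrid of 129/SvImJ and C57Bl/6J, while the growth protocol names C57Bl/6J donors. PE is prostate epithelium with wild-type NKX3.1 and no vector named. The mNKX3.1+UTY_sh grafts hold seminal vesicle epithelium with a construct labelled mNKX3.1 and a hairpin labelled UTY_sh. Doxycycline was given in the drinking water for 3 months to switch on the altered pTRIPZ inducible vector, and the protocol names both a wild-type and a T164A mutant NKX3.1. The sample annotation used here lists 3 months of doxycycline for all 20 libraries, PE included. The labels do not say what the m stands for, or whether each library stands for its own animal. The p-values therefore measure the spread among libraries of a group, and that spread may be technical only. Unmodified seminal vesicle grafts (SVE, 4 libraries) are given beside some results.

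Prostate and seminal vesicle are male accessory glands of different embryonic origin. The prostate buds from the urogenital sinus, and the seminal vesicle grows out of the Wolffian duct. Under androgen, the luminal cells of each gland make a characteristic set of secreted proteins, which pass through the endoplasmic reticulum and Golgi apparatus before release. Urogenital sinus mesenchyme can induce prostate in a responsive epithelium, and NKX3.1 is an androgen-regulated homeobox factor of luminal prostate cells. UTY is encoded on the Y chromosome and resembles KDM6A, an X-encoded histone demethylase. EHMT2, also called G9a, methylates histone H3 at lysine 9.

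The libraries held about 24050000 to 29810000 reads in mNKX3.1+UTY_sh and 14930000 to 20820000 in PE, and the 50 most abundant genes took 59.7 to 66.4% and 36.0 to 38.2% of them. Values are log2 and flatten towards a floor of about 2.27, so a fold against a group near the floor is understated, and levels are not scaled to gene length. PE replicate 3 stood apart from the other PE libraries for several secretory genes, and PE replicates 2 and 4 for macrophage genes. Their values stand beside some of the results they touch, and others are given only under the results flagged for a closer look. On the antilog values of 2664 genes with a mean above 10, each of the 8 libraries lay closer to a weighted sum of 2 others than to any single library, and averaging by itself lowers such a distance. The closest sum for mNKX3.1+UTY_sh replicate 4 was SVE replicate 1 and UTY_sh replicate 2 in equal parts, with a median absolute log2 difference of 0.0345, against 0.0705 from the nearest single library. For its group's replicate 2 it was SVE replicate 4 and UTY_sh replicate 1, at 0.0389 against 0.0537. For all 4 PE libraries, the closest sum and the nearest single library came from the grafts labelled mNKX3.1 (seminal vesicle epithelium with the construct alone). PE replicate 4 lay 0.0492 from such a sum and 0.0546 from mNKX3.1 replicate 3, and within its own group 0.0529 from equal parts of PE replicates 1 and 2, against 0.0809 from the nearest single PE library. Whether any libraries hold mixed or pooled material is not said in the labels and was not tested.

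Uty and Ehmt2 were examined first. Uty was 9.12, 9.12, 9.09 and 9.29 in mNKX3.1+UTY_sh replicates 1 to 4 and 10.18, 10.13, 10.45 and 10.19 in PE replicates 1 to 4. The groups did not overlap, and Uty was lower by 1.08 on the log2 scale (difference -1.08, SE 0.11, adjusted p = 1.31e-07, limma). SVE grafts, which carry no hairpin, held Uty at 9.04 to 9.55, also below the PE values. Between mNKX3.1+UTY_sh and SVE the difference in Uty was -0.14, with a 95% interval from -0.37 to 0.10. The cause of the lower Uty beside PE was not tested. Among 4 Y-linked genes tested, the helicase gene Ddx3y also fell, with a difference of -0.94, while Kdm5d (-0.13) and Eif2s3y (-0.03) did not pass the test. Without PE replicate 2, the PE library lowest for it, Kdm5d passed at -0.21 (adjusted p = 0.00673). Ehmt2 ranged from 11.32 to 11.43 in mNKX3.1+UTY_sh and from 11.20 to 11.47 in PE, and its difference of 0.06 did not pass (95% interval -0.06 to 0.19). Levels of the constructs' NKX3.1 are not reported here.

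Among the lists of the prostate programme, the secretory genes had the largest median deficit in mNKX3.1+UTY_sh. By limma, 8493 of 13456 genes differed at an adjusted p below 0.05 (63.1%), 4339 lower in mNKX3.1+UTY_sh (32.2%) and 4154 higher (30.9%). At least 2-fold differences were fewer, 1072 lower (7.97%) and 1163 higher (8.64%), and the median difference over all genes was -0.02. The 4 libraries of mNKX3.1+UTY_sh all lay below the 4 of PE for 28.9% of genes and all above them for 27%. Of the 19 prostate secretory genes, all of which passed the filter on low values, 16 were lower, 2 were higher and 1 did not pass, with a median difference of -7.04. Against SVE, 0 of the 13456 genes passed the same test, with 557 (4.14%) at an unadjusted p below 0.05, and none of the 19 prostate secretory genes had an unadjusted p below 0.05. The 19 genes varied widely, with a median SD of 1.84 in mNKX3.1+UTY_sh and 1.96 in SVE. Large differences from SVE in these genes could therefore fail to pass.

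**Figure D1:**
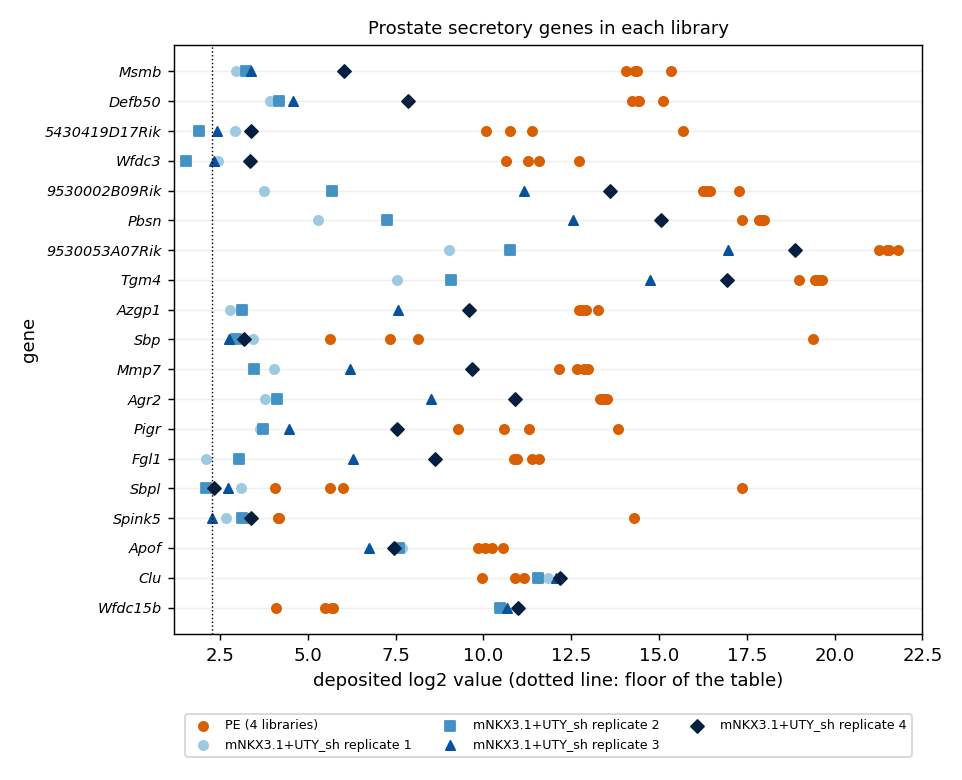
Deposited log2 values (x axis) of the 19 prostate secretory genes (y axis), with PE libraries in orange and the 4 mNKX3.1+UTY_sh libraries in blue, a marker for each replicate. Msmb, Defb50, 5430419D17Rik and Wfdc3 sat far below PE in all 4 mNKX3.1+UTY_sh libraries, whereas Pbsn and Tgm4 were spread widely. Wfdc15b lay above PE, and Clu was higher with a slight overlap.

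Promoters of 4 genes are shown because these genes stand for the patterns described below: Pbsn and 9530053A07Rik, whose level varied between mNKX3.1+UTY_sh libraries, Wfdc3, which was near the floor in all of them, and the seminal vesicle gene Sva, which was high in all of them. Each is the 250 bases before the gene's start in RefSeq's GRCm38.p6 (another build than the mm9 of the deposited table), read 5′ to 3′ on the gene's strand. Capitals mark AGAACA or its reverse complement TGTTCT, the half-site letters of the androgen response element.
Pbsn (chrX:77853501-77853750, minus strand): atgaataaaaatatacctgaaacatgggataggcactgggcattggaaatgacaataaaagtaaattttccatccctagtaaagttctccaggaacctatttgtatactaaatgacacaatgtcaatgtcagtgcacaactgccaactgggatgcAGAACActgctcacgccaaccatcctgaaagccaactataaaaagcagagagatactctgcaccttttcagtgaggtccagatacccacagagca
9530053A07Rik (chr7:28129216-28129465, plus strand): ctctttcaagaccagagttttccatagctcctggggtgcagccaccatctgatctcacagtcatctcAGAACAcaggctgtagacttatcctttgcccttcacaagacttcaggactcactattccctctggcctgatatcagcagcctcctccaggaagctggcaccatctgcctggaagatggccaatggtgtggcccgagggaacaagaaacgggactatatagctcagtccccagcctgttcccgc
Wfdc3 (chr2:164743268-164743517, minus strand): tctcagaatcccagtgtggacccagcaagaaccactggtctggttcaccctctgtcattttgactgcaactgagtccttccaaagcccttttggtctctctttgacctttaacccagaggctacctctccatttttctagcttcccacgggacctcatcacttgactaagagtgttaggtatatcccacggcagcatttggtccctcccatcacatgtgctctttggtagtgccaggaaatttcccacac
Sva (chr6:42038144-42038393, plus strand): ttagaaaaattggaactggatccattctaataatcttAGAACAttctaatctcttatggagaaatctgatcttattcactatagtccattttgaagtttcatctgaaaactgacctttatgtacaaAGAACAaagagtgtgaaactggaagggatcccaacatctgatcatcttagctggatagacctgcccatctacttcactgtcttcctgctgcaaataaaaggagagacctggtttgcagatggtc
The first of the half-site letters lay 95 bases before the start in Pbsn, 183 in 9530053A07Rik, and 213 and 124 in Sva, and the letters were not in this window of Wfdc3. Where the promoter table gives a gene several starts, all of them were searched. Of the 12 prostate secretory genes matched in that table, 7 (58.3%) held the letters before any start, and 5 (41.7%) before the first start listed. The promoters shown do not tie the letters to a pattern. Among other genes whose level varied between libraries, 9530002B09Rik and Mmp7 held the letters before any start, and Tgm4, Azgp1 and Agr2 did not. Msmb, Defb50, 5430419D17Rik and Fgl1 had no promoter there. Among seminal vesicle secretory genes the share was 8 of 12 (66.7%) either way. It was 13% before any start and 10.8% before the first among the 9617 matched genes of all those tested, and 18.2% and 16.2% among all 27025 genes of the table. The forkhead letters TGTTTAC or TATTTAC were in 0 of 12 prostate and 2 of 12 seminal vesicle promoters (4.29% of the matched genes tested). The 2 were Svs3a and Svs3b, which are close copies. TAAGTA, the letters of an NKX3.1 site, was in 0 and 4 (5.1%). The 4 were Svs3a, Svs3b, Svs4 and Pax2, a transcription factor gene that the seminal vesicle list also holds. Before the first start only, the seminal vesicle counts were 2 for the forkhead letters and 3 for TAAGTA. All these letters were searched on both strands, no match overlapped another in the promoters shown, and a match is a description of letters, not of binding.

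Several secretory genes were at or near the floor in mNKX3.1+UTY_sh. Msmb, the gene of beta-microseminoprotein, a major protein of prostatic fluid, was 14.07, 14.38, 15.35 and 14.31 in PE replicates 1 to 4 and 2.97, 3.24, 3.37 and 6.04 in mNKX3.1+UTY_sh replicates 1 to 4. The groups were far apart, and replicate 4 was the highest of the low group. The difference was -10.62 (SE 0.76, adjusted p = 1.36e-09, limma), the largest fall of all genes tested. The beta-defensin gene Defb50 had the same shape, at 14.23 to 15.10 in PE and at 3.93, 4.17, 4.56 and 7.85 in mNKX3.1+UTY_sh (difference -9.41). Wfdc3, of the whey acidic protein family of protease inhibitors, was 10.64, 11.59, 12.73 and 11.26 in PE and 2.45, 1.53, 2.34 and 3.34 in mNKX3.1+UTY_sh. None of these last values could be told from the floor, and the difference was -9.14 (SE 0.52, adjusted p = 5.26e-11). 5430419D17Rik was 10.06 to 15.67 in PE and 1.91 to 3.39 in mNKX3.1+UTY_sh.

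Another set of secretory genes was low but present, to a degree that differed widely between mNKX3.1+UTY_sh libraries. Pbsn encodes probasin, the androgen-dependent secretory protein long used to mark prostate luminal cells. It was 17.93, 17.86, 17.37 and 18 in PE and 5.29, 7.27, 12.56 and 15.06 in mNKX3.1+UTY_sh replicates 1 to 4. No library of the latter reached the PE range, but replicates 3 and 4 were far above replicates 1 and 2. The difference was -7.74 (SE 1.96, adjusted p = 0.00216), with a 95% interval from -11.9 to -3.62. As a share of the PE mean, Pbsn stood at 0.0173%, 0.068%, 2.66% and 15.1% in the 4 libraries. Tgm4, the prostate transglutaminase that cross-links proteins of the copulatory plug, was 18.98 to 19.65 in PE and 7.55, 9.06, 14.75 and 16.95 in mNKX3.1+UTY_sh. Its shares of the PE mean were 0.0272%, 0.0775%, 3.99% and 18.3%. 9530053A07Rik, a prostate secretory gene named only by its clone, was 21.28 to 21.80 in PE and 9.03, 10.77, 16.95 and 18.87 in mNKX3.1+UTY_sh.

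The same libraries were high and low for other genes of the list. 9530002B09Rik was 3.74, 5.68, 11.16 and 13.60 against 16.26 to 17.27 in PE. Azgp1, which encodes zinc-alpha-2-glycoprotein, was 2.77, 3.13, 7.56 and 9.60 against 12.72 to 13.27. Agr2, a disulfide isomerase gene of mucus-secreting cells, was 3.78, 4.13, 8.50 and 10.89 against 13.32 to 13.53. Fgl1 and the matrix metalloprotease gene Mmp7 likewise stood at 16.9% and 12.5% of the PE mean in replicate 4 and at 0.182% and 0.253% in replicate 1. Over the 19 prostate secretory genes the median share of the PE mean was 0.182%, 0.158%, 2.41% and 12.5% in replicates 1 to 4. Values near the floor overstate these shares. The spread belongs to SVE grafts as well: the median SD of the 19 genes was 1.84 in mNKX3.1+UTY_sh, 1.96 in SVE and 0.467 in PE, against 0.117, 0.166 and 0.149 over all genes. Pbsn was 6.43 to 15.71 in the SVE libraries.

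**Figure D2:**
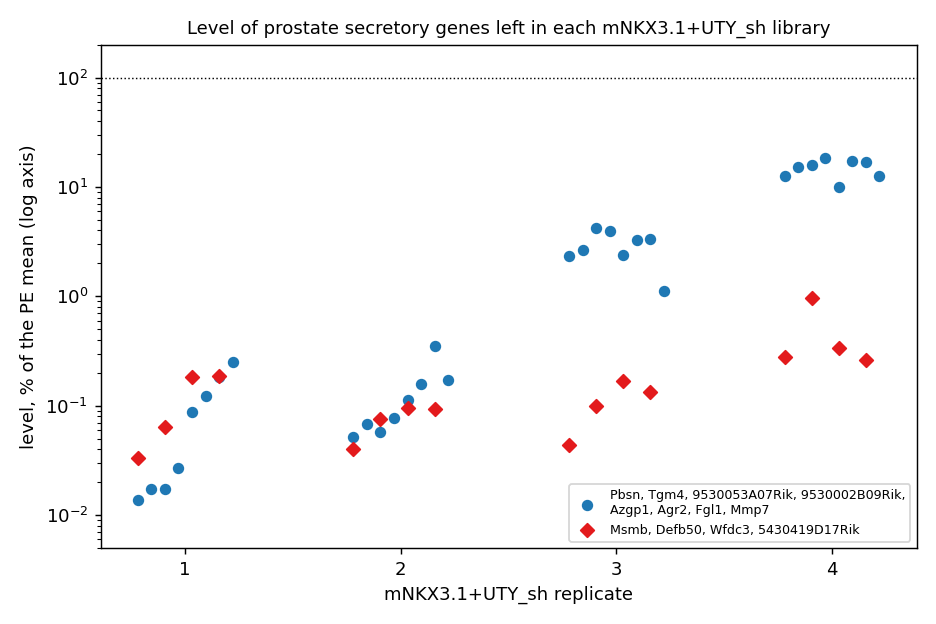
Level of 12 prostate secretory genes in each mNKX3.1+UTY_sh library as a percent of the PE mean (logarithmic y axis, points shifted sideways for clarity, dotted line at 100%). The 8 genes in blue stood between 9.95% and 18.3% in replicate 4 and between 0.0136% and 0.253% in replicate 1, whereas Msmb, Defb50, Wfdc3 and 5430419D17Rik in red stayed below 1% in all 4 libraries. Other genes of the list are not shown, among them Pigr, which lay between the blue and red genes in replicate 4.

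In replicate 4 Msmb was at 0.278% of the PE mean, Defb50 at 0.971% and Wfdc3 at 0.337%, while Pbsn, Tgm4 and 9530053A07Rik were at 15.1%, 18.3% and 15.8%. In replicates 1 and 2 these 6 genes were between 0.0173% and 0.182%. Pigr, also on the list, lay between these sets in replicate 4, so they are not sharply divided. It was at most 4.455 in replicates 1 to 3 and 7.55 in replicate 4, against a PE mean of 11.25. Grouping the genes in this way was done after their values were seen, so no test was made between the sets.

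Whether a gene was absent depended on the library examined. Taking a value below 5 in all 4 mNKX3.1+UTY_sh libraries as off and at least 7 in all 4 PE libraries as on, 3 called genes were on in PE and off in mNKX3.1+UTY_sh (0.0223% of those tested): Wfdc3, 5430419D17Rik and D030018L15Rik. Without mNKX3.1+UTY_sh replicate 4 there were 30, among them Msmb, Defb50, Pigr (the polymeric immunoglobulin receptor, which carries IgA across epithelium), the orphan nuclear receptor gene Esrrg and the secreted glycoprotein gene Olfm4. In replicate 4 these 30 genes had a median of 5.86, with 3 below 5 and 2 at or above 7. Leaving out PE replicate 3 gave 13, PE replicate 1 gave 8 and PE replicate 2 gave 5. Of the 237 genes that were on in PE and at least 2 lower on the log2 scale in mNKX3.1+UTY_sh, 73 (30.8%), 75 (31.6%), 35 (14.8%) and 3 (1.27%) were below 5 in replicates 1 to 4. In the reverse direction 288 genes were on in mNKX3.1+UTY_sh and at least 2 higher there. Of these, 42 (14.6%), 49 (17%), 80 (27.8%) and 42 (14.6%) were below 5 in PE replicates 1 to 4. Both sets were chosen by the size of their difference, which favours low values. PE replicate 3 alone held Sbp and Sbpl, 2 close copies of the spermine-binding protein gene between which the split of reads is uncertain, at a high level. Sbp was 5.63, 7.35, 19.38 and 8.14 in PE and 2.76 to 3.45 in mNKX3.1+UTY_sh. Its difference of -7.04 (adjusted p = 0.0173) became -3.95 without PE replicate 3 (adjusted p = 0.069). Sbpl, at 17.36 in PE replicate 3 and 4.05 to 6.01 in the others, had adjusted p = 0.042 and lost the call without any single mNKX3.1+UTY_sh library (adjusted p = 0.0623 to 0.0768). Without PE replicate 3 its difference of -5.70 became -2.67 (adjusted p = 0.19). Spink5, an inhibitor of kallikrein proteases, was 14.28 in PE replicate 3 and 3.28 to 4.18 in the others, and did not pass (difference -3.61).

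Of the list, 2 genes were higher than in PE. Clu, which encodes the secreted chaperone clusterin, was 11.85, 11.54, 12.07 and 12.17 in mNKX3.1+UTY_sh and 11.60, 10.91, 9.96 and 11.17 in PE. The ranges overlapped slightly, and Clu was higher by 1.0 (SE 0.30, adjusted p = 0.00686). Wfdc15b, a further whey acidic protein gene, was 10.46 to 11 against 4.09 to 5.71, so it rose by 5.54. Apof, an apolipoprotein gene, fell in a narrow band, at 7.69, 7.61, 6.75 and 7.46 against 9.85 to 10.56 in PE, which is 9.33 to 17.9% of the PE mean, with replicate 4 no higher than the others.

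Among 14 prostate surface proteins, 13 were tested: 5 were lower, 4 higher and 4 did not pass, with a median difference of -0.15. These shares, 38.5% lower and 30.8% higher, lie near the 32.2% and 30.9% of all genes. Slc45a3, which encodes the antigen prostein, was 6.42, 6.40, 7.26 and 9.37 against 11.61 to 12.25 in PE (difference -4.45). Steap1, of the STEAP metalloreductase family, was 2.77 to 5.02 against 7.07 to 7.86 (difference -3.79). Folh1, which encodes the surface antigen PSMA, went the other way, at 5.35 to 5.72 against 2.97 to 3.32 (difference 2.34). The calcium channel gene Trpv6 was also higher (3.29), but PE replicate 3 stood at 11.06, above the mNKX3.1+UTY_sh range of 10.70 to 11.02. Prom1, Steap3 and Psca were among those that did not pass, though Prom1, at -0.15, passed at -0.24 without PE replicate 3 (adjusted p = 0.0105). The interval for Steap3 ran from -0.28 to 0.25.

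Transcription factors of the programme included genes well below and well above PE. Of 22 prostate and urogenital sinus regulators, 21 were tested, with 8 lower, 8 higher and 5 not passing, and a median difference of 0.05. With 38.1% in each direction, against 32.2% lower and 30.9% higher over all genes, the counts alone do not set the list apart. Foxa1, a forkhead pioneer factor that opens chromatin in prostate cells, was 9.04, 9.13, 9.56 and 9.89 in mNKX3.1+UTY_sh and 11.84, 11.60, 12.30 and 11.79 in PE. The groups were more than 1 log2 unit apart, and Foxa1 fell by 2.47 (difference -2.47, SE 0.23, adjusted p = 5.05e-08). Its level was 13.9% to 25.2% of the PE mean, so it was reduced rather than absent. Creb3l4, a membrane-bound factor of secretory cells, differed by -2.50, the epithelial ETS factor Ehf by -1.35 and Spdef, an ETS factor of prostate and goblet cells, by -0.64. Gata2, a zinc finger factor of androgen response, rose by 1.78, and the ETS factors Elf5 and Elf3 by 2.07 and 0.99. Nfib and Sox9 did not pass, with differences of 0.05 and 0.08 and intervals from -0.11 to 0.20 and from -0.26 to 0.42. Gata3 and Bhlha15, higher by 0.27 and 0.43, lost the call when single libraries were left out, and Gata3 stood at 0.13 without PE replicate 3.

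**Figure D3:**
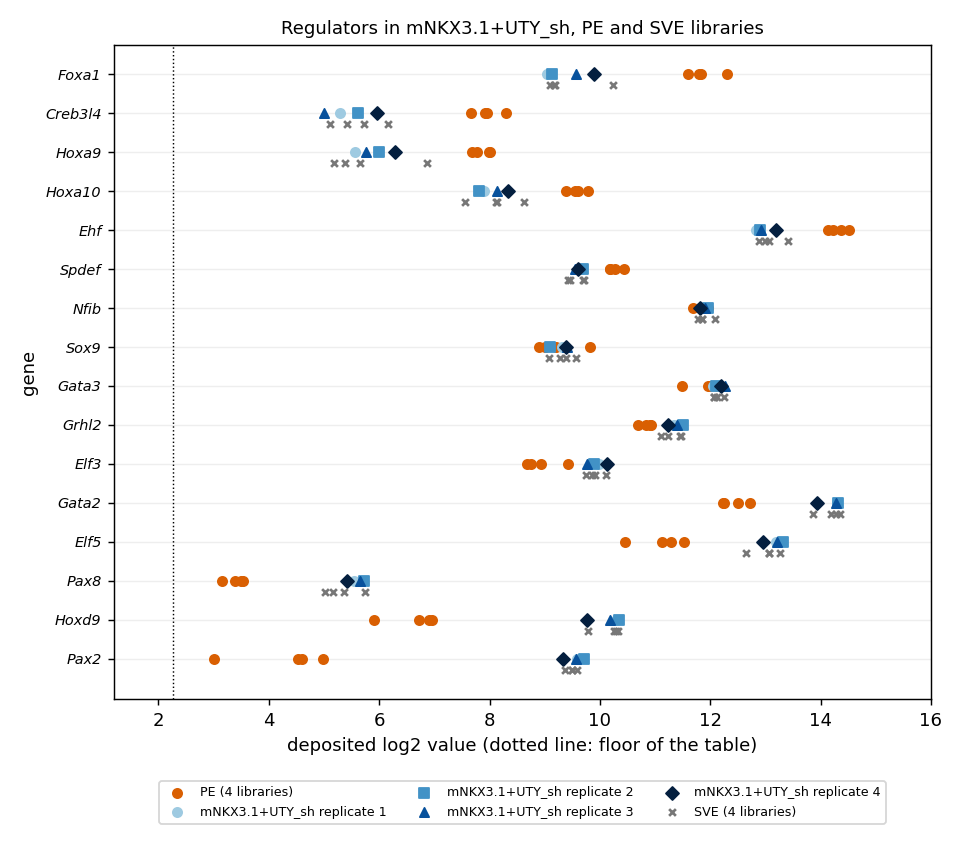
Log2 values (x axis) of 16 regulators (y axis) in PE (orange), mNKX3.1+UTY_sh (blue, a marker for each replicate) and SVE (grey crosses, set just below) libraries. Foxa1 and Creb3l4 lay below PE, Gata2, Elf5, Hoxd9 and Pax2 above it, and the SVE libraries lay next to those labelled mNKX3.1+UTY_sh.

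Androgen response genes differed in both directions. Of 20 genes listed, 19 were tested: 8 were lower, 6 higher and 5 did not pass, with a median difference of -0.39. The shares were 42.1% lower and 31.6% higher, against 32.2% and 30.9% of all genes. Tmprss2, an androgen-induced membrane serine protease gene, was 8.93, 8.79, 9.58 and 10.91 against 12.69 to 13.08 in PE (difference -3.42, SE 0.53). It stood at 6.09%, 5.53%, 9.54% and 23.9% of the PE mean. Acsl3, a long-chain acyl-CoA synthetase gene, fell by 2.75, and Zbtb10, Abcc4 and Sord, the sorbitol dehydrogenase gene, by 1.36, 1.01 and 0.99. In contrast, Herc3, Homer2 and Elovl5, a fatty acid elongase gene, were higher by 1.71, 1.42 and 1.0. Homer2 was at 8.63 in PE replicate 3, above the mNKX3.1+UTY_sh range of 8.48 to 8.56. Fkbp5, a co-chaperone gene of steroid receptors, was at 0.41 and did not pass, but passed at 0.70 without PE replicate 3.

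Genes of the secretory pathway were mostly lower, by less than the secretory products. Of 25 endoplasmic reticulum chaperone and unfolded protein response genes, 21 were lower (84%) and 3 higher (12%), with a median difference of -0.99. Over all genes 32.2% were lower and 30.9% higher. Pdia6, a protein disulfide isomerase gene, was 12.38, 12.56, 12.72 and 13.35 against 15.18, 14.97, 14.66 and 15.06 in PE, and fell by 2.21 (difference -2.21, SE 0.26, adjusted p = 7.2e-07). Hspa5, which encodes the chaperone BiP, was 14.04 to 14.19 against 15.05 to 15.70 (difference -1.35), and the stress sensor gene Atf6 was 10.96 to 11.31 against 12.49 to 12.93 (-1.60). These values were narrow within each group and did not overlap. Ero1lb, an oxidase gene of disulfide bond formation, was the exception in size, at 12.33 to 12.60 against 8.11 to 8.89, and rose by 3.98 (SE 0.15, adjusted p = 2.38e-13), while its relative Ero1l fell by 0.25. The sensor gene Ern1 and its target Xbp1 were higher by 0.50 and 0.24, and Xbp1 lost the call when any of PE replicates 1, 2 and 4 or mNKX3.1+UTY_sh replicates 1 and 2 was left out (adjusted p = 0.0628 to 0.136).

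**Figure D4:**
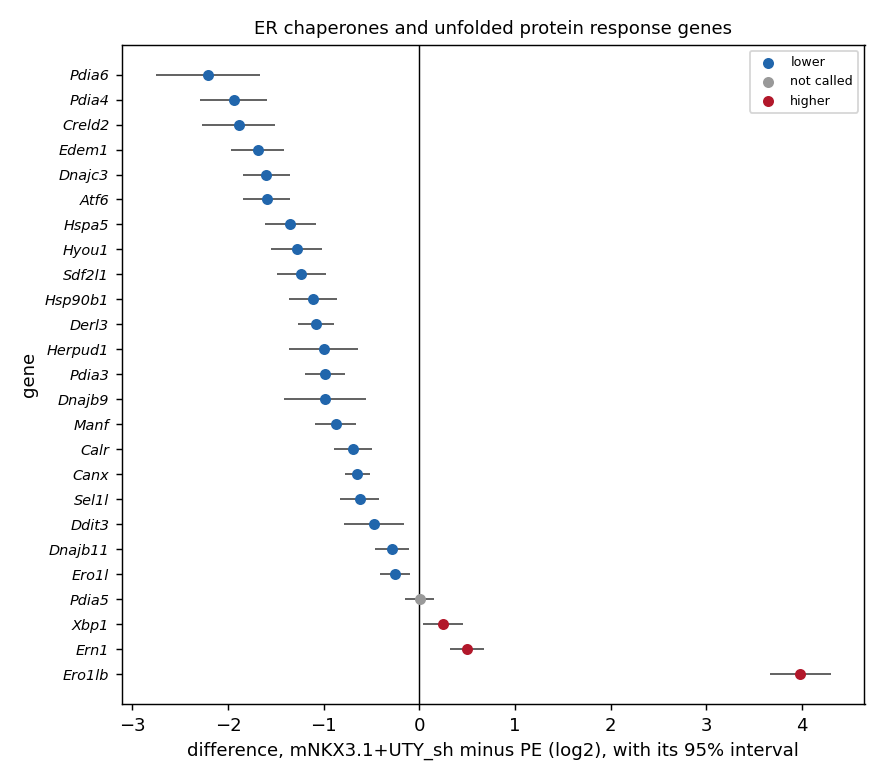
Difference between mNKX3.1+UTY_sh and PE (log2, x axis) for 25 endoplasmic reticulum chaperone and unfolded protein response genes (y axis), with bars for the 95% interval of the limma fit and colours for the call. The 21 genes in blue ran from Pdia6 at -2.21 to Ero1l at -0.25, and Ero1lb stood alone at 3.98.

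In the other lists of the secretory pathway the median differences were smaller. Of 24 translocon and signal peptidase genes, 15 were lower (62.5%) and 3 higher (12.5%), with a median of -0.35. The shares over all genes were 32.2% and 30.9%. Srp14, of the signal recognition particle, fell by 1.33, and Spcs3, a signal peptidase subunit gene, by 0.69. Of 22 N-glycan transfer genes, 14 were lower (63.6%) and 4 higher (18.2%), with a median of -0.26. Of 28 genes tested for transport between endoplasmic reticulum and Golgi, 20 were lower (71.4%) and 1 higher (3.57%), with a median of -0.34. Tmed3, a cargo receptor gene, was 12.40 to 12.79 against 13.65 to 13.81 and fell by 1.10. The coat gene Sec24c (-0.01) and the chaperone-like oxidoreductase gene Pdia5 (0.00) did not pass.

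**Figure D5:**
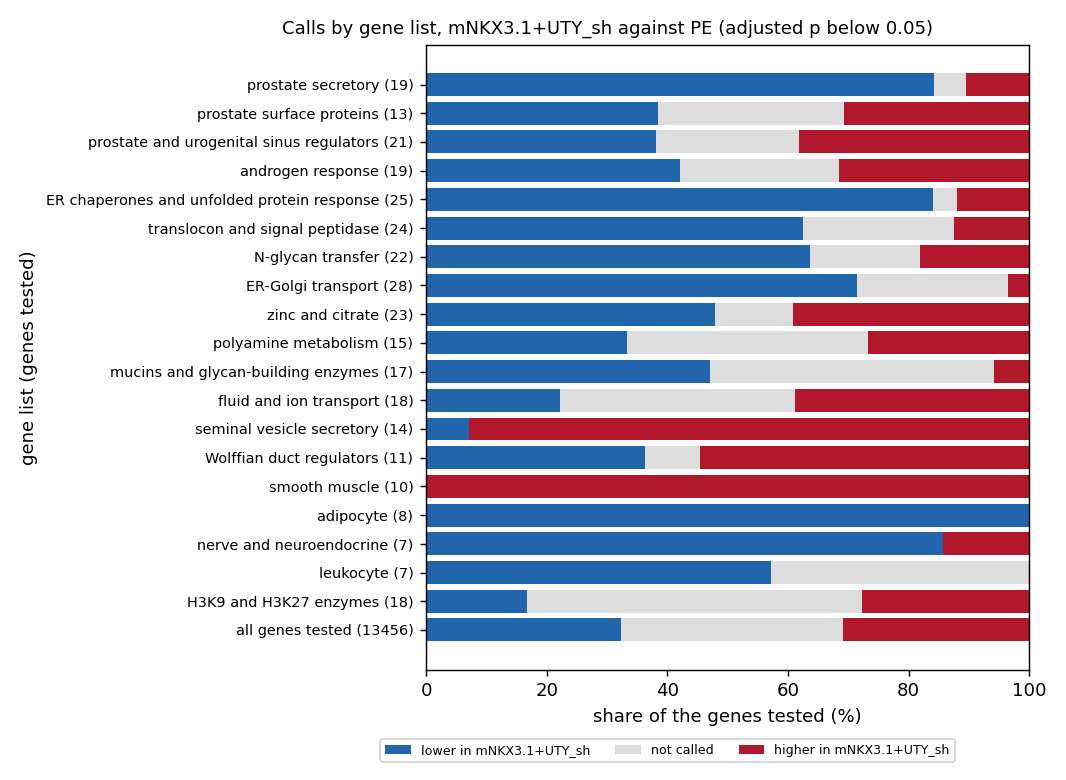
Share of tested genes (x axis, percent) that were lower (blue), not called (grey) or higher (red) in mNKX3.1+UTY_sh than in PE, for 19 gene lists and for all 13456 genes (bottom). Prostate secretory, endoplasmic reticulum chaperone and adipocyte genes were mainly lower, and seminal vesicle secretory and smooth muscle genes mainly higher.

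The prostate stores zinc and citrate in its fluid, and genes for this differed in both directions. Of 23 zinc and citrate genes tested, 11 were lower (47.8%) and 9 higher (39.1%), with a median of -0.03. Over all genes 32.2% were lower and 30.9% higher. The zinc exporter gene Slc30a2 was 6.09, 5.74, 8.22 and 10.04 against 11.74 to 12.46 in PE (difference -4.72, SE 0.97), and the metallothionein gene Mt3 was 3.54, 2.97, 6.18 and 8.49 against 10.37 to 10.88 (-5.33). Both were highest in replicate 4, at 21.7% and 22.8% of the PE mean, and neither group overlapped the other. Mt1 and Mt2 fell by 2.19 and 2.67. Cs, for citrate synthase, did not pass, at -0.03, and the zinc transporter gene Slc30a4 was higher by 1.71.

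The prostate also secretes much of the polyamine spermine. Of 15 polyamine genes tested, 5 were lower (33.3%) and 4 higher (26.7%), shares near those of all genes, with a median of -0.16. Arg2, the arginase that supplies ornithine, was 6.13 to 7.38 against 9.39 to 9.51 (difference -2.90), and the spermine synthase gene Sms fell by 1.40. Odc1, for ornithine decarboxylase, was higher by 0.24, and the spermine oxidase gene Smox by 1.67. Mat2a differed by -1.58, with PE replicate 3 at 14.60 and the other PE libraries at 11.12 to 11.49. Without that library its difference was -0.77 and did not pass (adjusted p = 0.0886). Of 17 mucin and glycan-building genes tested, 8 were lower (47.1%) and 1 higher (5.88%), with a median of -0.11. The shares over all genes were 32.2% and 30.9%. The fucosyltransferase gene Fut9 was 2.98, 3.97, 7.69 and 9.81 against 12.25 to 12.48 (difference -6.25), and the mucin gene Muc20 was 2.79 to 6.01 against 7.62 to 8.33 (-3.87). Galnt2, which starts O-linked glycans, rose by 1.84. Of 18 fluid and ion transport genes tested, 4 were lower (22.2%) and 7 higher (38.9%), with a median of -0.04. Among them the carbonic anhydrase gene Car2 was at -2.13.

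Beside these deficits, the mNKX3.1+UTY_sh grafts held the secretory genes of seminal vesicle. Of 15 genes listed, 14 were in the table and all were tested. Of these, 13 were higher (92.9%, against 30.9% of all genes) and 1 lower, with a median difference of 9.83. The list also holds Pax2, which encodes no secreted protein, and without it 12 of 13 were higher (median 10.33). Sva was 17.83, 17.82, 17.33 and 16.93 in mNKX3.1+UTY_sh and 6.20, 5.92, 7.78 and 6.94 in PE, a difference of 10.77 (SE 0.37, adjusted p = 6.8e-14). Svs2, which encodes the main clotting protein of the copulatory plug, was 21.72 to 22.28 against 17.31, 17.26, 13.86 and 17.32 in PE, so the PE libraries also held it. Svs6 was 19.31, 19.25, 18.73 and 18.39 in replicates 1 to 4, lowest in the library that held most Pbsn. Svs3a and Svs3b are close copies, and the split of their reads is uncertain. Spink3, a trypsin inhibitor gene, was higher by 7.28, but PE replicate 3 held it at 17.14, above the mNKX3.1+UTY_sh range of 15.38 to 16.12. Gpx3, an extracellular glutathione peroxidase gene, was the lower gene, at 10.59 to 12.45 against 13.63 to 14.23.

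Regulators of the Wolffian duct were present too. Of 12 listed, 11 were tested, with 6 higher (54.5%) and 4 lower (36.4%), and a median of 0.72. Over all genes 30.9% were higher and 32.2% lower. Pax2, the paired-box factor that Wolffian duct development requires, was 9.58, 9.72, 9.56 and 9.33 in mNKX3.1+UTY_sh and 4.98, 4.52, 3.01 and 4.61 in PE, and rose by 5.27 (SE 0.28, adjusted p = 2.58e-11). Hoxd9 and Pax8 were higher by 3.52 and 2.19. Hoxa9 and Hoxa10 fell by 1.97 and 1.54. Under the same limits, 27 called genes were on in mNKX3.1+UTY_sh and off in PE (0.201%), among them Pax2, the homeobox gene Irx1, the LIM-domain gene Lmo3, the urate oxidase gene Uox and the acute-phase gene Orm3. Orm3 was 10.67 to 10.82 against 3.45 to 4.08. Raising the limits to below 4 and at least 8 left 13.

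Stromal and other cell types differed as well, and in bulk tissue fewer cells of a type and less RNA per cell cannot be told apart. The stroma is rat in origin, and whether rat reads were removed is not given in the sources used here. All 10 smooth muscle genes were higher, against 30.9% of all genes, with a median of 1.31. The summed level of the list was 16.96 to 17.33 in mNKX3.1+UTY_sh and 15.68 to 16.15 in PE. Myh11, smooth muscle myosin, was 15.33 to 15.65 against 14.22 to 14.63. All 8 adipocyte genes tested of 9 were lower, against 32.2% of all genes (median -2.49). Their summed level was 8.49 to 9.42 in mNKX3.1+UTY_sh and 11.15 to 12.18 in PE. Adipoq, the adiponectin gene, was 3.82 to 5.11 against 6.76 to 8.13, highest in PE replicate 3. Of 7 nerve and neuroendocrine genes tested, 6 were lower (85.7%) and Ncam1 was higher (1.84). The summed level of this list overlapped, at 9.57 to 9.83 in mNKX3.1+UTY_sh and 8.91 to 9.97 in PE. The neuronal tubulin gene Tubb3 was 1.94 to 2.91, near the floor, against 7.87, 7.77, 4.84 and 7.63 in PE. The part these cell types played in the gene differences above was not tested.

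Macrophage genes separated the PE libraries from each other. Emr1, which encodes the macrophage antigen F4/80, was 6.71, 12.32, 8.62 and 11.46 in PE and 7.15 to 7.52 in mNKX3.1+UTY_sh. Its difference of -2.49 became -1.64 without PE replicate 2 (adjusted p = 0.0982) and -1.93 without PE replicate 4 (adjusted p = 0.0836), neither passing. Of 7 leukocyte genes tested of 13 in the table, 4 were lower (57.1%, against 32.2% of all genes) and 3 did not pass (median -1.01). Without PE replicate 2 or without PE replicate 4, 2 were lower. The summed level of the list was 10.88 to 14.02 in PE and 11.20 to 11.34 in mNKX3.1+UTY_sh. PE replicate 1, with the lowest Emr1, held Pbsn at 17.93, inside the 17.37 to 18 of the other PE libraries, and Msmb at 14.07, just under their 14.31 to 15.35. This is 1 library, and whether macrophage content bears on these levels was not tested. Of 8 endothelial genes 3 were higher (37.5%) and 1 lower (12.5%), with a median of 0.34. Of 8 proliferation genes tested 2 were higher and 2 lower (25% each, median -0.05). Among 18 histone H3K9 and H3K27 enzymes, 5 were higher (27.8%) and 3 lower (16.7%), with a median of 0.05. Both shares lie below those of all genes, 30.9% higher and 32.2% lower. Suv39h2, an H3K9 methyltransferase gene, was 4.94 to 5.79 against 6.97 to 7.13 and fell by 1.62, and the H3K27 demethylase gene Kdm6b was higher by 0.60. Kdm6a, the X-linked relative of Uty, did not pass, at -0.12, but passed at -0.18 without PE replicate 2 (adjusted p = 0.0483).

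The libraries labelled mNKX3.1, with the construct and no hairpin, give a further reference. Pbsn was 17.69 to 17.96 in those 4 libraries, Wfdc3 11.09 to 12.29 and Tgm4 19.25 to 19.57, values next to those of PE. Pax2 averaged 4.18 and Foxa1 11.96 there. These levels are given as a description, and no test against that group was made.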

How the data were processed

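TruSeq libraries of poly-A RNA were sequenced, per the labels' protocols. Of tools, the submitters' processing notes list TopHat2 2.0.4 and bcl2fastq 1.8.4, beside DESeq, Cufflinks 2.0.2 and the build mm9. How rat reads were handled, which annotation was used and how reads were counted is not given in the sources used here. Log2 values fill the authors' deposited table, 1 per gene and library, and flatten towards a floor, as after variance stabilisation. Between 11 and 13, 100% of the antilogs were evenly spaced in steps of 1 read (within 0.1). The size of the step and a constant offset were fitted for each library to the same values. These steps gave the depths, but lower values could not be turned into reads, so no count test was run and no pseudocount was added. Depth limits precision for genes near the floor.

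limma 3.58.1 in R 4.3.3 was fitted to all 20 libraries with a mean per group, a variance trend and Benjamini-Hochberg adjustment over all 13456 genes. It was tried on simulated data in which only well-expressed genes of small spread were changed. That trial does not cover genes near the floor or genes that varied widely within a group. Labels set the groups; replicates were numbered in accession order. The rule for named genes takes Ehmt2 and Uty, the 12 falls and 12 rises of greatest size without overlap, up to 4 genes with the smallest p and up to 4 least changed genes per list, members of the prostate, androgen, seminal vesicle and Wolffian lists, and on-off genes. Genes named outside that rule were chosen after their values were seen. The members and the 35 lists were chosen with earlier results of these data known. Not every gene this rule takes is reported here. Alternatives changed the minimum, the libraries fitted, the centring, the trend, the scaling and the libraries kept.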

Additional observations from a re-analysis of the deposited data

Results flagged for a closer look

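In 25 of 210 groups examined (105 named genes in PE and in mNKX3.1+UTY_sh), a single library lay far from the other 3, with a gap above Dixon's 95% critical value for 4 samples. Chance flags about 1 group in 20, and the genes are not independent.

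PE replicate 3 was the library in 16 of them. It was high for Sbpl (17.36, others 4.05 to 6.01), Spink3 (17.14, others 4.93 to 6.72), Spink5 (14.28, others 3.29 to 4.18), Mat2a (14.6, others 11.12 to 11.49), Trpv6 (11.06, others 6.27 to 6.63) and D030018L15Rik (11.66, others 7.61 to 8.16). It was also high for Bhlha15 (12.97), Slc30a4 (9.32) and the nuclear receptor gene Esrrg (9.50). It was low for Svs2 (13.86, others 17.26 to 17.32), the neuronal tubulin gene Tubb3 (4.84, others 7.63 to 7.88), Wfdc15b (4.09), Muc20 (7.62), Slc30a2 (11.74), Smox (8.06) and Tmprss2 (12.69). Elsewhere in PE, replicate 1 was high for Orm3 (4.08) and replicate 2 low for the Y-linked Kdm5d (9.12).

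mNKX3.1+UTY_sh replicate 4 was the library in the other 7. It was high for Defb50 (7.86, others 3.93 to 4.57), Msmb (6.04, others 2.97 to 3.37), Prom1 (11.96), and the Y-linked Ddx3y (10.62, others 10.28 to 10.32) and Uty (9.29, others 9.09 to 9.12). It was low for Gata2 (13.93, others 14.28 to 14.32) and Kdm6b (10.63). The causes were not tested.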

How the results depend on the processing

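Against 8493 called genes, the alternatives called 7122 (minimum of 7) to 8916 (no minimum), and 7914 to 8508 without 1 library. Of the 8493 calls, 7072 to 8387 were made again and 0 in the opposite direction, and 47.5 to 53.5% of calls were higher. Without 1 of the 8 libraries, the genes on in PE and off in mNKX3.1+UTY_sh numbered 3 to 30, and 30 without mNKX3.1+UTY_sh replicate 4, SVE replicate 1 and UTY_sh replicate 3 together. Fewer samples must be low when libraries are left out. The reverse count was 13 with off below 4 and on at 8. A minimum of 7, which tests fewer genes, gave 3 lower nerve, 5 lower adipocyte, 0 higher kidney and 1 lower proliferation genes. Lower leukocyte genes numbered 2 in the fit on the 8 compared libraries and without those 3 libraries together, and 2 to 5 leaving out 1 library. Lower immediate early genes numbered 2 with no minimum and without those 3 libraries, and 1 to 2 leaving out 1, and 1 red blood cell gene was lower with no minimum. The causes were not tested. Of 1571 values of single genes under alternatives, 1531 kept their side of the threshold, 35 lost it, 5 passed it and 0 reversed. The rescaling without the 50 most abundant genes and the values without Pax2 and for the first start of each gene were chosen after seeing the data, and the pseudocount alternative was not run because the values are logs. No paired analysis was possible because the labels give no replicate numbers. Depth limits what can be said of genes near the floor, where absence cannot be told from a low level.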
